A study of Drosophila melanogaster with 32 samples.

Results

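The mitochondrial ribosome builds the few proteins that the mitochondrial genome encodes, all of them core parts of the respiratory chain and ATP synthase. Its RNA comes from that genome, but every one of its proteins is encoded in the nucleus, made in the cytosol and imported. Flies name these genes mRpL for the large subunit, which joins amino acids and holds the exit tunnel, and mRpS for the small subunit, which reads the messenger. Many of the proteins descend from bacterial ribosomal proteins, and others have joined the ribosome only in mitochondria. In Drosophila, reduced mitochondrial ribosomal protein function is known to slow development and to impair the fly's most energy-demanding tissues.

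Members were chosen by name alone, as all probe sets that match 1 gene whose symbol begins with mRpL or mRpS, with the brightest probe set standing for a gene that has more than 1. The current gene table holds 73 such genes. Of these, 69 have a probe set of their own and are described here, 44 named for the large and 25 for the small subunit. The subunit was taken from the symbol alone. By the number in the symbol, read with general knowledge of the protein families, 43 were classed as having a bacterial counterpart and 26 as found in mitochondria only. Single genes may be misplaced by this rule. They come from 71 probe sets, since mRpS11 and mRpL47 have 2 each. mRpL53 and mRpS10 lie only on probe sets shared with another gene, and mRpL34 and mRpL37 were not analysed here. The genes tko and bonsai also encode mitochondrial ribosomal proteins, under other symbols, and are given with the pathway below. All 69 genes were well measured: the lowest signal of any of them on any array was 162.6, against a minimum of 50 for a probe set to be tested, and their mean signals ran from 429.4 to 3807 in females and from 229.8 to 3126 in males.

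RNA was taken from whole bodies of virgin Drosophila melanogaster at an age of 42 days and read on 32 Affymetrix arrays, 2 for each of 8 lines in each sex. The 7 mutant lines each carry 1 homozygous P{GT1} gene-trap insertion, in or near pyd, mub, crol, CG10990, CG9238 or esg, while the exact site of the BG00817 insertion is not known. The control, Canton S F, shares their w1118 co-isogenic background without an insertion. All 7 lines had been picked for a longer life in at least 1 sex. In its life span screen the paper classed pyd, crol and BG00817 as male-specific and esg as sex-antagonistic. Each line is a single insertion, and all 7 are set against the same 2 control arrays of their sex, so their differences from control are not independent of one another. Both pools of a line and sex were drawn from one collection of flies, so the p-values reflect only how much these pools differed. In whole flies, fewer cells of a type and less RNA per cell cannot be told apart.

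Replicate arrays correlated at r = 0.964 to 0.985 on log2 signal. The tagged gene's own signal was lower than control in the mub line (log2 difference -1.55 in females, adjusted p = 0.00319, and -0.75 in males, adjusted p = 0.0342), and also in CG10990 in both sexes and in pyd and CG9238 in females. For esg it did not pass the test in either sex, and for crol no value is given. Values below are differences in log2 signal with limma's standard error and its Benjamini-Hochberg adjusted p over 12518 probe sets, and a gene is called when that p does not exceed 0.05, unless another threshold is stated.

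Differences among the 8 lines were tested first, in each sex apart. In females 12 of the 69 (17.4%) were called in the test over the 7 lines, where 23.5% of all probe sets were, and none reached an adjusted p of 0.001, where 1.17% of all did. In males 4 (5.8%) were called against 27.3% of all, and 1, mRpL50, at 0.001 against 1.69%. How the female share compares with the background depends on the test. An analysis of variance on untransformed signal called 21 of the 69 in females (30.4%, against 21.3% of all probe sets). In males it called 6 (8.7%, against 24.8%). The 6 strongest in females were mRpL50 (adjusted p = 0.00433), mRpL11 (0.013), mRpS2 (0.0177), mRpS11 (0.0205), mRpL1 (0.0221) and mRpL17 (0.0232). The 4 in males were mRpL50 (6.24e-05), mRpS6 (0.0229), mRpL45 (0.0324) and mRpL32 (0.0441).

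Of the 14 comparisons of a line with control in 1 sex, the largest shift was in females of the mub line. All 69 genes had a negative difference from control there, from -0.83 to -0.07 with a median of -0.41, while the median over all genes tested was -0.06. Of the 69 genes 42 (60.9%) fell and none rose. Among all probe sets 24.1% were called in either direction and 13.9% fell. In 64 of the 69 (92.8%) both mub arrays lay below both control arrays, which held for 35.6% of all probe sets.

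**Figure D1:**
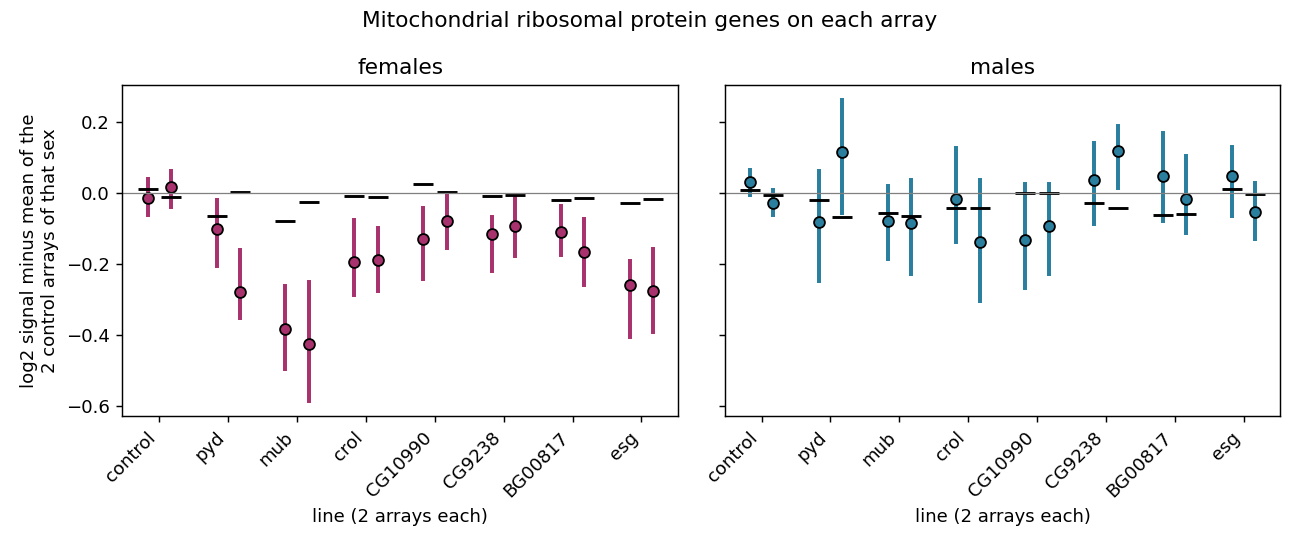
Median (circle) and middle 50% (bar) over the 69 genes of log2 signal on each array, less the mean of that sex's 2 control arrays; black dashes are the median over all genes tested. In females both mub arrays (-0.38 and -0.42) lie lowest and the esg arrays and the second pyd array come next, whereas male arrays scatter around 0.

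mRpS26, a small subunit protein found in mitochondria only, gave signals of 819.5 and 1102 in control females and 507 and 563 in mub females. The 2 control arrays differ much from each other, yet both lie above both mub arrays. The log2 difference was -0.83 (SE 0.18, adjusted p = 0.0137). mRpS23, another small subunit protein without a bacterial relative, read 1120 and 943 in control and 516.5 and 672 in mub females. Again no mub array reached the lower control array, and the difference was -0.80 (SE 0.18, adjusted p = 0.0138). mRpL48, a mitochondria-only protein of the large subunit, read 542 and 512 in control and 319 and 307 in mub females. Here the 2 arrays of each group nearly coincide, at a difference of -0.75 (SE 0.15, adjusted p = 0.00964). None of these genes was called in mub males. There mRpL48 read 286.5 and 294 in control and 225.5 and 163 in mub, and mRpS23 read 411 and 394 against 339.5 and 290. For both, the mub arrays again lay below control. mRpS26 lay above it, with 285.5 and 273 in control and 326.5 and 330 in mub males.

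All 6 genes that led the test over the lines in females fell in mub females. mRpL11, whose bacterial relative forms the base of the stalk that recruits translation factors, read 583 and 636 in control and 417 and 434 in mub females (-0.52, SE 0.08, adjusted p = 0.00455). mRpS2, of the bacterial S2 family, read 1099 and 999.4 against 707 and 697 (-0.58, SE 0.09, adjusted p = 0.00431). mRpL1, whose bacterial relative is a mobile stalk at the site where spent tRNA leaves, read 1415 and 1538 against 1066 and 961 (-0.54, SE 0.09, adjusted p = 0.00482). In each of these 3 the groups were separated by more than the gap within either. mRpL50 (-0.54, adjusted p = 0.00929), mRpS11 (-0.54, adjusted p = 0.0049) and mRpL17 (-0.50, adjusted p = 0.00995) fell to a like extent.

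The falls were spread over genes named for either subunit. Of mRpL genes 30 of 44 fell (median difference -0.43) and of mRpS genes 12 of 25 (-0.35). Of genes classed as having a bacterial counterpart 24 of 43 fell (-0.36), and of those classed as mitochondria-only 18 of 26 (-0.42). The 27 genes that did not pass the test ran from mRpL20 (-0.45, adjusted p = 0.069) to mRpL32 (-0.07, adjusted p = 0.718), and included mRpS5, the brightest of all, at -0.12 (adjusted p = 0.368).

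**Figure D2:**
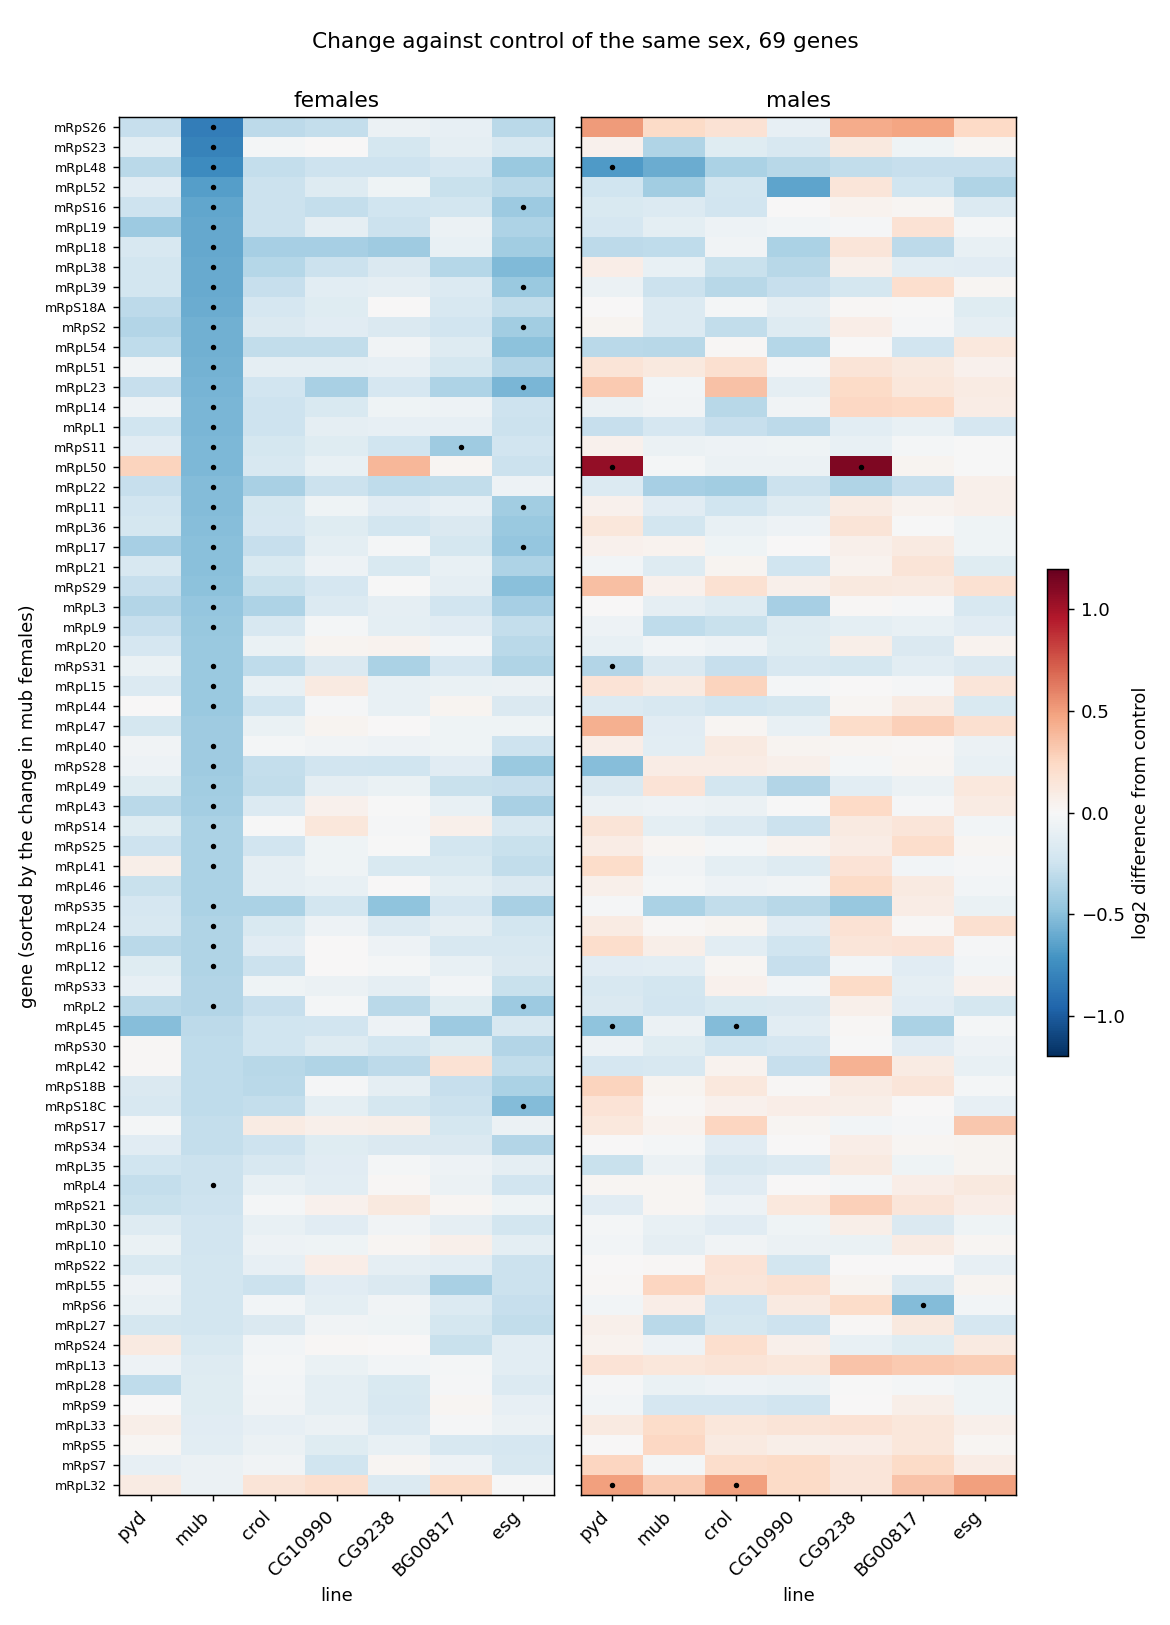
Log2 difference from control for each of the 69 genes (rows, sorted by the change in mub females) in each line, females left and males right; blue is lower, red higher, and a dot marks a called gene. The mub column of females is blue throughout with 42 dots and the esg column has 8, while in males the strongest cells are the 2 red ones of mRpL50.

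The count of 42 rested on the few arrays compared. It was 19 without control female replicate 1, 11 without control female replicate 2, 21 without mub female replicate 1 and 16 without mub female replicate 2, and it moved by less than 1.5 times without any other array. The median stayed between -0.42 and -0.38. Rescaling the arrays by quantiles gave 21 genes lower and a median of -0.31, and testing with no minimum signal gave 17. Set against the mean of the other 6 insertion lines instead of the control, a comparison chosen after seeing the data, 25 of the 69 were lower in mub females (36.2%, against 15.2% of all probe sets), none higher, with a median of -0.25.

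Markers of several tissues moved in the same arrays. Of 14 measured ovary and egg markers, 5 fell in mub females (osk, bcd, orb, grk and aub, by 0.41 to 0.87 on the log2 scale), none rose, and the median difference of the 14 was -0.31. Among the 5, grk had a median signal of 570.5 in females and 962.7 in males, so its probe set does not mark the ovary here. Not called were exu (-0.24), otu (-0.37) and zpg (-0.49), which lay below control, and vas (0.27), which lay above it. The yolk and eggshell genes on the list (Yp1, Yp2, Yp3, Cp36 and Cp16) all had positive differences, of 0.29 to 2.74, without a call. They raise the list's median above the values of most of the other markers. The list's summed signal, dominated by these yolk and eggshell genes, overlapped between control (76101 and 86463) and mub females (85741 and 97459). Of 3 measured eye markers trpl (0.84) and inaD (0.75) rose in mub females, with a list median of 0.75, and of 5 gut markers Jon65Ai rose (1.79, list median 0.43). Of 8 muscle markers TpnC4 fell (-1.94) and Mlp84B rose (0.57), with a list median of 0.20. None of 9 testis and 6 accessory gland markers was called, and their summed signals were at most 239 and 90 in control and mub females. The part of these tissues in the result was not tested.

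In males of the mub line none of the 69 was called, where 1.29% of all probe sets were, and the median difference was -0.07, equal to that of all genes tested to 2 decimals. The test of the difference itself, change in males minus change in females, passed for 6 genes (8.7%, against 4.14% of all): mRpS26 (1.06, adjusted p = 0.0272), mRpL51 (0.68, 0.0379), mRpL15 (0.55, 0.0485), mRpL50 (0.51, 0.0401), mRpS11 (0.47, 0.029) and mRpL24 (0.38, 0.0489). All 6 fell in mub females, and in mub males their differences from control ran from -0.07 to 0.23 with no call. The difference was positive for 66 of the 69 genes, with a median of 0.33 where all genes tested had -0.01. For 36 of the 42 genes that fell in females, a difference between the sexes was therefore not shown.

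In esg females all 69 differences were negative as well, with a median of -0.27 against -0.03 over all genes, and in 60 (87%) both esg arrays lay below both control arrays, against 30.3% of all probe sets. In all, 8 genes fell (11.6%), where 3.99% of all probe sets were called and 1.57% fell. The esg and mub differences share their control arrays.

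mRpL23, whose bacterial relative sits at the mouth of the exit tunnel, read 1084 and 1224.5 in control and 786 and 793 in esg females. The esg arrays were close together and below both controls, at -0.55 (SE 0.12, adjusted p = 0.0436). mRpS18C, 1 of 3 fly forms of the bacterial S18 protein, read 762 and 670.5 in control and 514.5 and 485 in esg (-0.52, SE 0.10, adjusted p = 0.0305). In mub females it read 539 and 623 (-0.30, adjusted p = 0.0619). mRpL17, a large subunit protein of a bacterial family, read 2119 and 2166.5 in control and 1594 and 1512 in esg (-0.47, SE 0.10, adjusted p = 0.0361). The other 5 were mRpL2, mRpL11, mRpL39, mRpS2 and mRpS16, lower by 0.42 to 0.45 on the log2 scale.

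**Figure D3:**
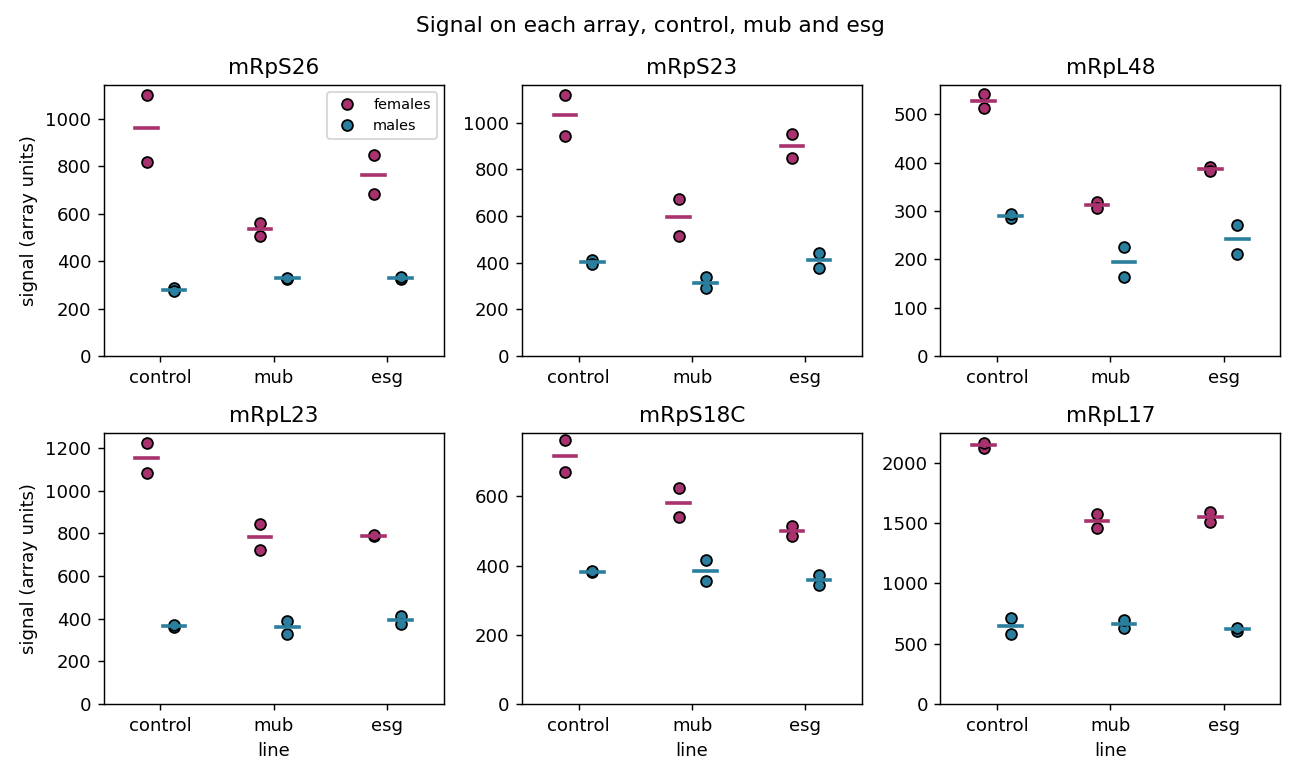
Signal on each array (points) and group mean (lines) for 6 genes in control, mub and esg flies, females and males side by side, on a linear axis from 0. The control females lie above both mub arrays in the upper row and above both esg arrays in the lower row. In signal units, on which males start lower, the 3 lines differ less in males. Both mub male arrays also lie below both control male arrays for mRpS23 and mRpL48.

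These 8 calls rested on most of the female arrays. None was left without either control female array or without either esg array, 10 were called without pyd female replicate 1, and 12 of the 16 arrays moved the count by more than 1.5 times when left out. No gene was called in esg males, against 1.22% of all probe sets, the median was -0.02, and no gene passed the test of a sex difference in the esg change (0.639% of all did). Against the other 6 insertion lines none of the 69 was lower in esg females (0.711% of all probe sets were), with a median of -0.09. Of the ovary and egg markers 1 of 14, aub, fell in esg females (-0.46), and the list's median was -0.11. Not called were osk, zpg, exu, bcd, orb and otu, with differences of -0.37 to -0.12. The yolk genes Yp1, Yp2 and Yp3 lay at -0.096 to -0.085, and grk, Cp36, vas and Cp16 were positive (0.02 to 3.11), also without a call. Of the eye markers inaD rose (0.78, list median 0.64), of the muscle markers TpnC4 fell (-1.03, list median 0.14), and no gut, testis or accessory gland marker was called. The array's fly control transcripts had a greater excess of 3′ over 5′ signal in esg females (log2 ratios of 3.15 and 3.23) than in control females (2.65 and 2.80). It was also above both controls on the 8 female arrays of crol, CG10990, CG9238 and BG00817 (2.88 to 3.13), but not in mub females (2.74 and 2.33). The pyd female arrays lay on either side of the controls (2.47 and 2.97), with medians over the 69 genes of -0.10 and -0.28. In crol, CG10990, CG9238 and esg females, as in pyd, the array with the higher ratio had the lower median, by a small margin. In control, mub and BG00817 females it had the higher median instead. The part of these tissues and of this ratio in the esg result was not tested.

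The other 5 lines had few calls in females. Medians were all negative, at -0.19 for pyd, -0.20 for crol, -0.11 for CG10990, -0.10 for CG9238 and -0.13 for BG00817, where all genes tested lay between -0.04 and 0.01. No gene was called in pyd, crol, CG10990 or CG9238 females, where 3.9%, 2.68%, 1.19% and 1.85% of all probe sets were. The control females thus had the highest level of this gene set as a whole among the 8 lines, and the 2 control arrays enter every one of these differences. In BG00817 females 1 gene was called, against 3.95% of all. It was mRpS11, of the bacterial S11 family in the small subunit's platform, with 1513 and 1548 in control and 1159 and 1113 in BG00817 females. Both arrays lay well below both controls (-0.43, SE 0.09, adjusted p = 0.0261). Its second probe set gave -0.35 with an adjusted p of 0.204.

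mRpL50 was the gene with the strongest pattern of its own. This large subunit protein has no bacterial counterpart. In males it read 362 and 347 in control, 683 and 788 in pyd and 769 and 767 in CG9238, and between 319 and 369 on the 10 arrays of the other 5 lines. The 4 arrays of pyd and CG9238 thus stand within the range of the 16 female arrays (552 to 1162), with a wide gap to the other 12 male arrays. The rise was 2.07-fold in pyd (1.05, SE 0.10, adjusted p = 0.00017) and 2.17-fold in CG9238 (1.12, SE 0.10, adjusted p = 0.000166). Both calls held without any one of the 16 male arrays, at adjusted p of up to 0.004.

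In females mRpL50 read 823 and 859.5 in control, 1110 and 928 in pyd and 1056 and 1162 in CG9238. Both lines again lay above control, by 0.27 and 0.40, without passing the test (adjusted p = 0.112 in CG9238). It fell in mub females, to 609 and 552 (-0.54, SE 0.10, adjusted p = 0.00929), where mub males, at 342 and 353, matched their control. The change in males exceeded that in females by 0.78 in pyd (adjusted p = 0.0056) and by 0.72 in CG9238 (adjusted p = 0.0157), the 1 gene so called in each line, against 1.81% and 0.671% of all probe sets. No gene passed that test in crol, CG10990 or BG00817, where 2.53%, 0.232% and 0.383% of all probe sets did.

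**Figure D4:**
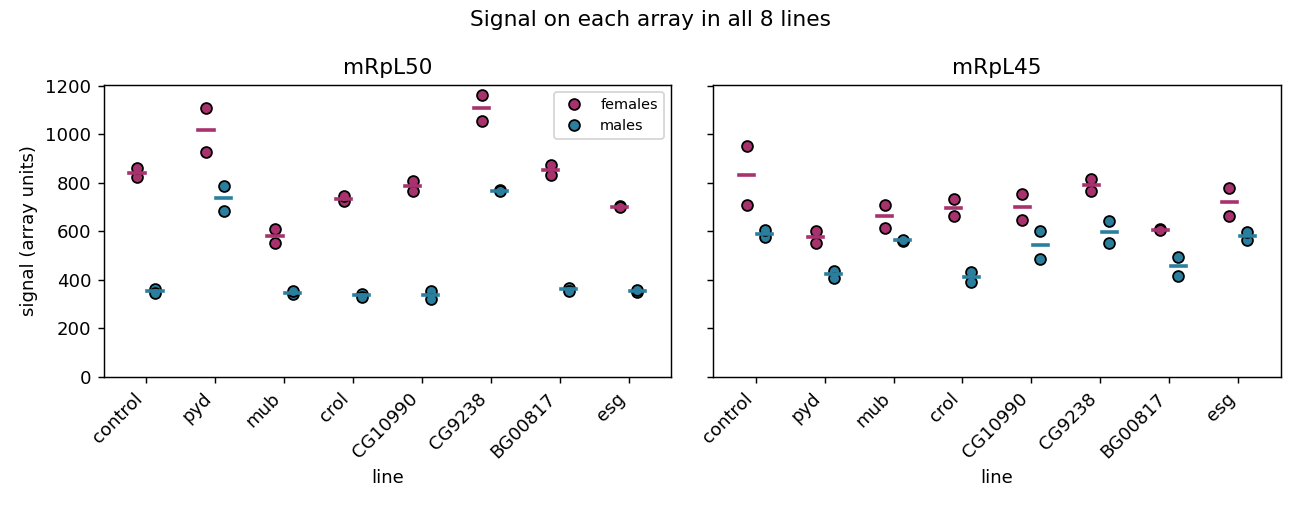
Signal on each array (points) and group mean (lines) of mRpL50 (left) and mRpL45 (right) in the 8 lines, females and males side by side, on a linear axis from 0. Male mRpL50 lies between 319 and 369 in 6 lines and between 683 and 788 in pyd and CG9238; male mRpL45 is lowest in pyd and crol.

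In pyd males 5 genes were called, where 8.8% of all probe sets were: mRpL50 and mRpL32 rose, and mRpL48, mRpL45 and mRpS31 fell. The median of the 69 was 0.00. mRpL32, a large subunit protein of a bacterial family, read 337 and 318 in control and 422 and 503 in pyd males (0.49, SE 0.12, adjusted p = 0.0258). mRpL48 read 286.5 and 294 against 190 and 174 (-0.68, SE 0.17, adjusted p = 0.0363). For both genes the 4 arrays fall into separate pairs. mRpL45, which in mammals holds the ribosome at the inner membrane, read 578.5 and 604 against 437.5 and 409 (-0.48, SE 0.13, adjusted p = 0.0499). mRpS31, a small subunit protein of mitochondria only, read 1070 and 1062 against 856 and 818 (-0.35, SE 0.09, adjusted p = 0.0365). Of these 5 calls only that of mRpL50 held when either control male array was left out.

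In crol males 2 genes were called, against 12.9% of all probe sets, from the same control arrays as in pyd. mRpL32 rose to 474.5 and 446 (0.49, SE 0.12, adjusted p = 0.025), and mRpL45 fell to 433 and 393 (-0.52, SE 0.13, adjusted p = 0.0328). Neither was called without either control male array. CG9238 males had 1 call, mRpL50, against 2.84% of all. BG00817 males had 1, against 5.6% of all: mRpS6, of the bacterial S6 family in the platform, read 816 and 778 in control and 569 and 545 in BG00817 males (-0.52, SE 0.13, adjusted p = 0.0408). The other 14 male arrays gave mRpS6 signals of 676 to 961.5, so both BG00817 arrays were the lowest of their sex. This call was lost in 12 of 16 fits with 1 array left out (adjusted p of up to 0.217, without control male replicate 1), and with quantiles, centring, no minimum signal or the replicate block. None was called in CG10990 males, against 2.89% of all. Male medians over the 69 genes ran from -0.10 in CG10990 to 0.07 in CG9238.

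Most of these genes were higher in females than in males. Averaged over the 8 lines, 65 of the 69 (94.2%) were higher in females at an adjusted p of at most 0.001, where 37.9% of all probe sets were, and none was higher in males, where 46.2% of all were. The median of males minus females was -0.81 on the log2 scale, against 0.18 over all genes tested. For 49 genes all 16 female arrays lay above all 16 male arrays, and 21 genes differed by 2-fold or more. The matching shares of all probe sets were not worked out, so these counts do not show how unusual the genes are. With arrays rescaled by quantiles or centred on their medians, 55 and 56 genes were higher in females and 2 and 1 in males, while the median over all genes moved to 0.02 and 0.40.

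mRpL39, a mitochondria-only large subunit protein that resembles threonyl-tRNA synthetase, differed most. Its signals ran from 782 to 1303 in females and from 194 to 320 in males, a gap with no array in it, and it was 4.44-fold higher in females (log2 difference -2.15, SE 0.04, adjusted p = 6.43e-19). mRpS18A, another S18 form, was 3-fold higher (-1.59, SE 0.05), mRpL52, of mitochondria only, 2.85-fold (-1.51, SE 0.07), and mRpL17 2.76-fold (-1.46, SE 0.05). At the other end, mRpS6 differed by 0.05 (SE 0.04, adjusted p = 0.27), mRpS22 by -0.02 (SE 0.06, adjusted p = 0.725), mRpL42 by -0.21 (SE 0.08, adjusted p = 0.015) and mRpL51 by -0.22 (SE 0.04, adjusted p = 0.000105). mRpS22, mRpL42 and mRpL51 are mitochondria-only proteins. Together with mRpS9 (-0.22, adjusted p = 0.0025), mRpS6, mRpS22 and mRpL42 are the 4 that missed the threshold of 0.001.

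**Figure D5:**
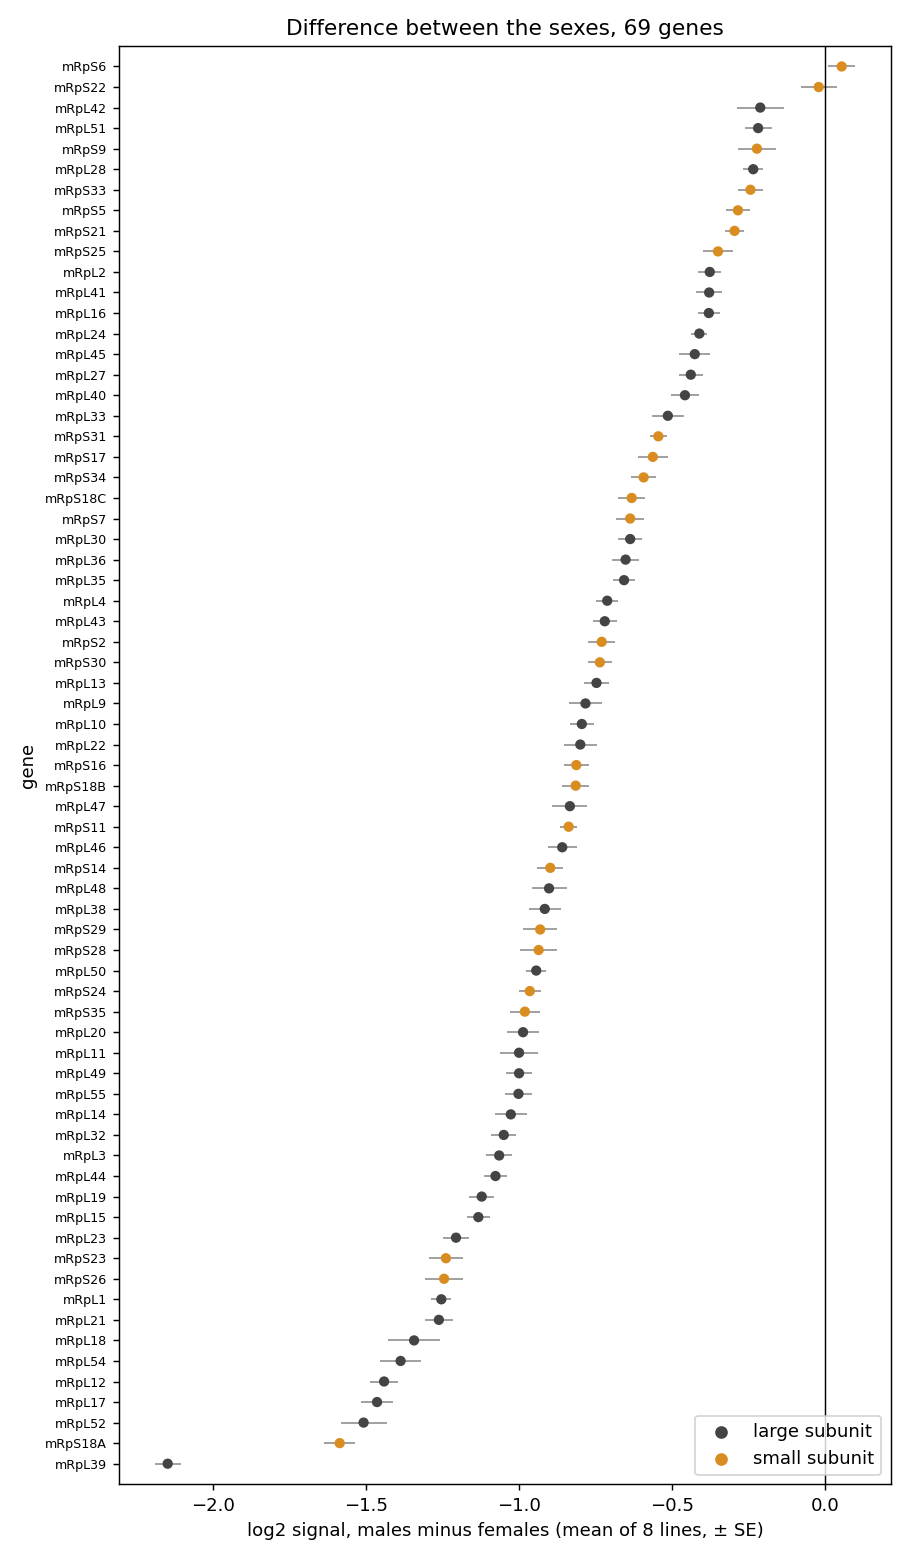
Log2 signal in males minus females, mean of the 8 lines with its standard error (bars), for each of the 69 genes. Dark points are genes with mRpL symbols and orange points genes with mRpS symbols. All points but mRpS6 lie left of 0, and mRpL39 stands apart at -2.15.

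Other genes of mitochondrial gene expression, listed below, were mostly higher in females as well. This held for 7 of 9 translation factors (median -0.86) and 15 of 18 aminoacyl-tRNA synthetases (-0.97), with 2 and 3 higher in males. It held for 10 of 11 genes of mitochondrial DNA upkeep and transcription (-1.34), with 0 higher in males, and for tko and bonsai. Genes of the cytosolic ribosome and of the respiratory chain did not show this sex difference. Of 41 measured cytosolic ribosomal protein genes 4 were higher in females and 8 in males (median 0.03), and of 71 respiratory chain and ATP synthase genes 1 was higher in females and 58 in males (median 0.42). Ovary and egg markers were higher in females for 13 of 14, all but grk, with a median difference of -7.46. The ovary is thus one tissue that only the female samples hold, and its part in the sex difference was not tested. Testis and accessory gland markers were higher in males for all 9 and all 6 measured.

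The line by sex test over all 7 lines called none of the 69 at an adjusted p of 0.001, where 0.591% of all probe sets were, and 6 (8.7%) at 0.05, where 14.6% of all were. The 4 with the smallest p were mRpL50, mRpL16, mRpL24 and mRpL49. mRpL16, whose bacterial relative helps to seat tRNA at the catalytic centre, read 1306 and 1259 in control and 1043 and 953 in mub females (-0.36, adjusted p = 0.0243), and 865 and 869.5 against 858 and 967 in males. mRpL24, whose bacterial relative starts large subunit assembly, read 1076 and 1062 against 820 and 840 in females (-0.36, adjusted p = 0.00978), and 660 and 731 against 694 and 711 in males. mRpL49, a mitochondria-only protein, read 1922 and 1674 against 1290.5 and 1390 in females (-0.42, adjusted p = 0.0165), and 797 and 856 against 929 and 920.5 in males. In all 3 the mub arrays lay below control in females, while in males at least 1 of them reached or passed a control array.

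Other genes of mitochondrial gene expression fell in mub females as well. The lists, written from general knowledge with earlier results of these data known, held 9 measured translation factors, 18 aminoacyl-tRNA synthetases and 11 genes of mitochondrial DNA upkeep and transcription. In mub females 5 of 9, 8 of 18 and 5 of 11 fell, none rose, and medians were -0.48, -0.45 and -0.52, where 13.9% of all probe sets fell and the median over all genes tested was -0.06. Among the factors, mEFG1, the elongation factor that moves the ribosome along, fell by 0.63 (SE 0.11, adjusted p = 0.00603), mEFTs, which recharges the tRNA carrier, by 0.51 (SE 0.08, adjusted p = 0.00583), and mRRF1, which recycles spent ribosomes, by 0.48 (SE 0.09, adjusted p = 0.00807). Of the DNA group, mtDNA-helicase, which unwinds the mitochondrial genome for copying, fell by 0.69 (SE 0.11, adjusted p = 0.00453), and TFAM, which packages it and starts transcription, by 0.52 (SE 0.09, adjusted p = 0.00668).

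Of the ribosomal proteins under other symbols, bonsai fell in mub females (-0.39, SE 0.11, adjusted p = 0.0291) and tko did not pass the test (-0.25, SE 0.09, adjusted p = 0.0715). In esg females mEFG1 was the 1 gene of the 3 lists called (-0.62, adjusted p = 0.0183), with medians of -0.33, -0.27 and -0.23. In the test over the 7 lines, mRRF1 (adjusted p = 0.00126), GlyRS (0.00527), HisRS (0.0117) and mEFTs (0.0138) led in females, and HisRS (0.00779), TrpRS-m (0.00884), ValRS-m (0.0108) and mRRF1 (0.0117) in males. GlyRS and HisRS also serve cytosolic translation. TrpRS-m and ValRS-m rose in crol males, by 0.70 (adjusted p = 0.0162) and 0.68 (adjusted p = 0.0219).

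The cytosolic ribosomal protein genes did not fall with them. In mub females 1 of 41 fell and none rose; the median of 0.30 became -0.02 after rescaling by quantiles, so their direction depends on the scaling. Of the 71 respiratory chain and ATP synthase genes 2 rose and none fell in mub females (median 0.13, and 0.01 by quantiles). In pyd males, where the mitochondrial ribosomal genes had a median of 0.00, 28 of the 41 cytosolic ribosomal protein genes rose and 2 fell. Their median was 0.49. Among all probe sets 8.8% were called in pyd males in either direction. In the same males 4 of 5 gut markers rose (list median 0.58). How far the rise of the cytosolic genes depends on the scaling was not tested.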

How the data were processed

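RNA was extracted with TRIZOL from pools of flies and read on Affymetrix Drosophila Genome 2.0 arrays. The deposited values are intensity on a linear scale, 1 signal per probe set and array, which the authors made with MAS5 (version not given in the sources used here). The methods name a median of 500 as the scaling target, whereas in the deposited table every array has a mean of 500.01 once the highest and lowest 2% of signals are left out; the array median was 48.2 to 71 in females and 115.5 to 141.1 in males. Such scaling fixes the mean of the signals that remain, so a change in bright genes among them can move all others.

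Of 18952 probe sets, 183 array controls were left out, 13647 had 1 symbol, 402 several and 4720 none, by the platform annotation updated through a RefSeq table (Release 6 plus ISO1 MT). Probe sets were tested if both arrays of a line and sex reached a signal of 50 (12518 probe sets, 10253 genes). The number of arrays limits the precision.

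log2 signal was analysed with limma 3.58.1 in R 4.3.3. Tests over the lines and against control used the 16 arrays of a sex (8 residual degrees of freedom), and the sex and line by sex tests used all 32 (16). Benjamini-Hochberg adjustment ran over all probe sets tested. The procedure was also checked on simulated data.

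Genes were named by a rule: up to 6 called genes per sex in the test over the lines, up to 3 on each side per line and sex with arrays beyond both controls, 4 at each end of the sex difference, the 4 smallest p of the line by sex test and up to 4 called pathway genes per sex. Other genes were named after their values were seen. The members, lists and rule were chosen with earlier results of these data known. Alternatives were other scalings, no minimum signal, an offset of 50, a replicate block and all 32 arrays in one fit. Others were the second probe set, an analysis of variance on untransformed signal, and each array left out. Same-numbered arrays did not deviate together in females (correlations of -0.08 to 0.08). In males correlations ran from -0.14 to 0.24, with 7 of 28 pairs of lines over 0.1 and 15 under 0. Numbers were not treated as pairs in the main fits. Figures were drawn with matplotlib 3.10.9.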

Additional observations from a re-analysis of the deposited data

Results flagged for a closer look

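Of the 69 genes 6 changed differently in males and females over the 7 lines by the test of the difference itself (limma's line by sex test, Benjamini-Hochberg adjusted p of at most 0.05). The adjusted p was 0.00153 for mRpL50, 0.0128 for mRpL16, 0.0195 for mRpL24, 0.0286 for mRpL49, 0.0376 for mRpS31 and 0.047 for mRpL15. This share of 8.7% lies below the 14.6% of all probe sets. For mRpL50 the single lines called are pyd, mub and CG9238, for mRpL24 and mRpL15 the line called is mub, and for mRpL16, mRpL49 and mRpS31 no single line was called. The number of genes was 3 to 12 when 1 array was left out.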

How the results depend on the processing

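No result changed direction where it was called, and the falls in mub females and the female excess kept their direction in every setting run. Precision is limited by 2 arrays a group: calls near the threshold come and go, and a gene not called is not shown to be unchanged. Leaving out either control array touches every line of that sex.

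For the number of the 69 genes called against control, 42 in mub females became 21 with quantile normalization, 17 with no minimum signal and 25 against the other 6 insertion lines (chosen after seeing the data), and was 37 with a replicate block. The 8 in esg females became 5, 3 with arrays centred on the median, 0 with no minimum signal, 4 with the replicate block and 0 against the other 6 lines. In pyd females 0 became 1 by quantiles, 1 by centring, 2 with an offset of 50 and 2 with all 32 arrays in one fit; in CG9238 females 0 became 2 by quantiles, 1 with the offset and 2 with all 32 arrays; in crol females and in esg males 0 became 1 with all 32 arrays. The 1 in BG00817 females became 0 with no minimum signal and with the second probe set. The 5 in pyd males became 2 by quantiles or centring and 1 with no minimum; the 2 in crol males became 0 with no minimum; and the 1 in BG00817 males became 0 by quantiles, by centring, with no minimum and with the replicate block. The block changed no other count by over 1.5 times.

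Over the lines, 12 genes in females became 7 by quantiles, 6 by centring and 1 with no minimum. They became 21 with the offset, 26 with all 32 arrays and 21 by an analysis of variance on untransformed signal. That last share was 30.4%, above the 21.3% of all probe sets, where the 12 lie below theirs. The 4 in males became 1 with no minimum and 12 with all 32 arrays. The 6 of the line by sex test became 2 with no minimum. The median moved to -0.31 by quantiles in mub females, to 0.083 by quantiles and 0.10 by centring in pyd males, to 0.029 by centring in mub males and to 0.13 by centring in BG00817 males. Centring moved the median of all genes from -0.07 to 0.04 in BG00817 males and from -0.07 to 0.03 in mub males. It also changed the share of all calls that were lower from 51.9% to 34.9% in pyd males, from 48.4% to 26.9% in BG00817 males and from 47.5% to 27.3% in mub males. Apart from settings with fewer samples, fewer genes or another spread by construction, the cause was not tested.

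With 1 array left out at a time, counts ranged from 11 to 45 in mub, 0 to 10 in esg, 0 to 2 in pyd and 0 to 1 in BG00817 females, and from 1 to 6 in pyd, 0 to 2 in crol, 0 to 1 in BG00817, 0 to 1 in CG10990 and 0 to 1 in esg males. They ranged from 3 (without mub female replicate 2) to 20 over the lines in females, from 2 to 10 in males, from 3 to 12 for line by sex at 0.05 and from 0 to 1 at 0.001. Medians ranged from -0.28 to -0.10 in pyd females, from -0.082 to 0.12 in pyd males and from -0.14 to -0.016 in crol males. The esg count was 0 without either control or either esg array, 1 without either crol array, 2 without either CG9238, 3 without either BG00817 and 5 without either CG10990 array. Of the 16 named calls, those of mRpL50 in pyd and CG9238 males outlasted every array left out. The others had adjusted p above 0.05 in 1 to 12 of 16 fits: mRpL48 in mub females in 1 (0.0546, without mub replicate 2), mRpS23 in 2 (up to 0.0714, without mub replicate 1) and mRpS26 in 3 (up to 0.09, without control replicate 2), and mRpS6 in BG00817 males and mRpL45 in pyd males in 12.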

Other observations

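mRpL50 lies on chromosome arm 3L. Of the 20 genes on each side of it in the gene table, 26 were tested, and 5 were called in pyd males, against 8.8% of all probe sets, and 3 in CG9238 males, against 2.84% of all; both lines use the same control arrays. CG14830, 4 genes away, differed by -0.49 in pyd males (adjusted p = 0.0101) and by -0.60 in CG9238 males (adjusted p = 0.00564). unc-13-4A, 5 genes away, differed by -1.18 (adjusted p = 0.00457) and -0.87 (adjusted p = 0.038). Cln7, 16 genes away, was higher by 1.04 (adjusted p = 0.0042) and 0.72 (adjusted p = 0.0461). Acbp2, 10 genes away on the opposite side, was higher by 0.61 in pyd males (adjusted p = 0.00861) and differed by 0.18 in CG9238 males (adjusted p = 0.54). The gene eco, 14 genes away, was also higher in pyd males (0.48, adjusted p = 0.027). In CG9238 males it differed by 0.24 (adjusted p = 0.384). In CG9238 females eco (0.98, adjusted p = 0.0011) and qm, 19 genes away (-0.66, adjusted p = 0.0421), were called. These genes were picked after their values were seen, and their relation to mRpL50 was not tested.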
